A study of Mus musculus with 36 samples.

Results

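The NRF2 antioxidant genes described here are 10 genes: Nfe2l2, Keap1, Gclc, Gclm, Gsr, Txnrd1, Srxn1, Nqo1, Ephx1 and Hmox1. They were found by name, as the probes other than controls whose gene name in the scanner files was one of these symbols. They had 13 of 56605 probes and were 10 of 37325 genes on the array. Testing required a signal well above background in some group (on 5 or more of its 6 arrays), and all 10 members were among the 24251 genes that passed. Nfe2l2, Txnrd1 and Hmox1 had more than 1 probe, and the brightest probe on average stood for the gene.

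Liver RNA of male C57Bl/6J mice was read on 36 one-colour Agilent arrays, 6 for each of 6 groups. AAKO mice lack adipose triglyceride lipase (ATGL, the enzyme that starts the breakdown of stored fat) in white adipose tissue, and CTRL mice are their controls. Which Cre line removed the gene is not given in the sources used here. The liver itself was not the target of the deletion. CTRL fed and AAKO fed mice ate freely, CTRL fasted and AAKO fasted mice went without food for 24 h, and CTRL CL316243 and AAKO CL316243 mice were fed and received 3 mg/kg of CL316243, which activates beta 3 adrenergic receptors on fat cells. The agonist was given by gavage in 0.5% carboxymethyl cellulose at Zeitgeber time 10 under 12 h of light, and tissue from all animals was taken at Zeitgeber time 16. The labels name no gavage for the fed and fasted groups. Both fed groups carry the label of experiment 2 and the other 4 groups that of experiment 1, so in any comparison with fed mice an effect of the experiment and one of the condition cannot be told apart. The labels number the samples of a group without saying how the animals were housed or bred, so their independence is not documented. The p-values set differences against the spread between these samples.

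NRF2, the protein made from Nfe2l2, is a transcription factor that switches on genes for antioxidant defence and detoxification. In unstressed cells KEAP1 holds NRF2 and hands it to a ubiquitin ligase for destruction, and reactive chemicals that modify KEAP1 let NRF2 build up and bind antioxidant response elements together with small MAF proteins. NRF2 activity is therefore set largely at the level of the protein, which these arrays do not read. In liver the pathway is known for glutathione synthesis, the thioredoxin system, quinone and epoxide detoxification and heme breakdown.

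The antioxidant response element has the core TGACNNNGC, where N is any base, and promoter windows of 300 bases (250 before to 50 after the start, RefSeq, GRCm38.p6) were searched for it on both strands. The table held 9 windows of 7 members, and 4 members had a match: Nfe2l2, Gclm, Srxn1 and 1 of 3 windows of Txnrd1. Over all 32851 windows, 12.4% held a match, and 14.0% of 27025 genes had at least 1 such window. Nqo1, Ephx1 and Keap1 had none in these windows, and Gclc, Hmox1 and Gsr are not listed in the table. A match describes letters only. The stretches around the matches are shown because they let the members be compared at the element that defines the pathway. Each is given 5′ to 3′ on the strand of its gene, with the core or its reverse complement in capitals.
Nfe2l2 (chr2:75704869-75704913, minus strand): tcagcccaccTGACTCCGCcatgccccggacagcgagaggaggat
Gclm (chr3:122245397-122245457, plus strand): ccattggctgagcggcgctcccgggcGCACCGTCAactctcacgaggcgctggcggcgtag
Txnrd1 (chr10:82859088-82859148, plus strand): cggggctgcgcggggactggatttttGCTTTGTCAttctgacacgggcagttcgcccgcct
Srxn1 (chr2:152105542-152105571, plus strand): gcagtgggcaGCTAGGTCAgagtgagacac
The Nfe2l2 match began at position -240 relative to the start, the Gclm match at -134 and the Txnrd1 match at -92. The Srxn1 match lay after the start, at position 28.

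The probe behind Nfe2l2 also matters, because its 2 probes gave opposite answers in fasted mice. Both lie on the minus strand of chromosome 2 (mm9, as the files give it), the probe annotated with transcript NM_010902 at chr2:75513771-75513830 and the probe annotated with ENSMUST00000152371 at chr2:75529291-75529350. The files do not say whether either lies in an exon, an intron or a UTR. The first 30 of the 60 bases of each are shown to identify them.
NM_010902 probe: ctcaagttaatttcttaggcaccatttggg
ENSMUST00000152371 probe: gtgctctgtcacctttaatatcacaacaat

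Levels are on the log2 scale with the 75th percentile of each array as 0, so 0 is the brightness of that percentile, and they are compared between groups for 1 probe at a time. Group values are means ± SD over 6 arrays. Differences are log2 fold changes ± SE from a limma fit with a wash batch term, so they can differ slightly from the difference of 2 means. A gene is called at a Benjamini-Hochberg adjusted p under 0.05 over the 24251 genes. Each array had 33130 to 37200 probes well above background. All 6 hepatocyte markers (Alb, Apoa1, Ttr, Cps1, Hnf4a and Ass1) were bright in every group, with a summed signal of 2230 to 2830 times the 75th percentile. In fasted mice all 6 nevertheless differed between genotypes, with Hnf4a (0.77), Cps1 (0.51) and Ass1 (0.39) higher in AAKO and Ttr (-0.47), Apoa1 (-0.41) and Alb (-0.14) lower, and with CL316243 the first 3 were higher (0.38, 0.70 and 0.29). On the first principal component, CTRL fasted replicate 2 lay at 81.3 against 16.8 to 29.0 for the other 5 arrays of its group and 103 to 111 for AAKO fasted. The fasted genotype differences of Nfe2l2 and Gclc are also given without it. It was also the lowest CTRL fasted array for Nqo1 (-1.67) and Gsr (3.79) and the highest for Hmox1 (2.84). RNA came from whole liver, in which fewer cells of a type and less RNA per cell cannot be told apart.

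**Figure D1:**
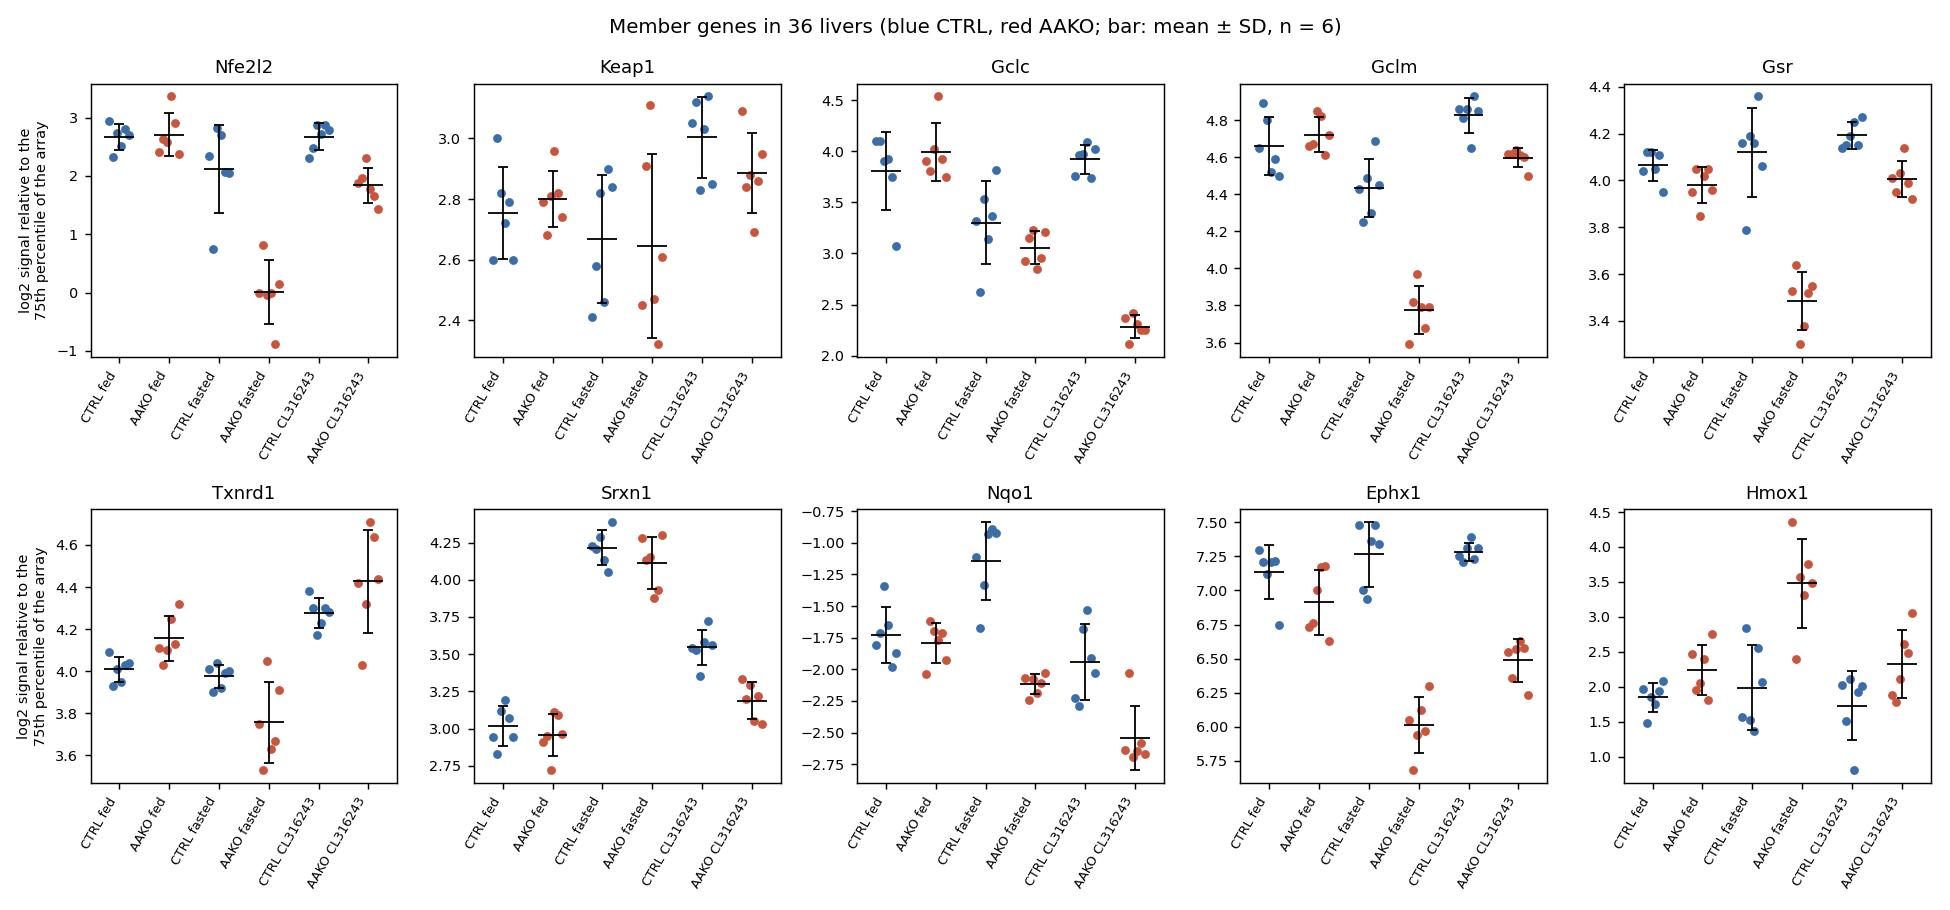
Level of each member gene (log2 signal over the array's 75th percentile, vertical axes differ) in the 36 livers, by group; points are arrays, bars the mean ± SD (n = 6). Gclc in AAKO CL316243 (2.11 to 2.42) and Nfe2l2 in AAKO fasted (-0.89 to 0.82) sit lowest of all groups, and Srxn1 is highest in both fasted groups.

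In fasted mice, 7 of the 10 members differed between genotypes: 6 were lower in AAKO and 1, Hmox1, was higher. The share called over all genes was 49.3%, so the number of calls is not far from the background, and the direction is what is reported: 28% of all genes were called lower and 21.3% higher. The median difference of the members was -0.44 against -0.04 over all genes tested. The 6 lower include Nfe2l2 by its NM_010902 probe, and with its other probe 5 members were lower and 2 higher, with a median of -0.23. Ephx1, Gclm, Gsr and Nqo1 did not overlap between genotypes, 4 of the 10 beside 21.3% of all genes. With CL316243, 7 of the 10 were called and all 7 were lower in AAKO, against 24.7% of all genes called (11.3% lower and 13.4% higher). The median was -0.31 for the members and 0.03 over all genes, and 5 of the 10 did not overlap, beside 11.5% of all genes. In fed mice none of the 10 was called by limma, with 0.0783% of all genes called (0.0412% higher and 0.0371% lower) and 1644 of 24251 at an unadjusted p under 0.05. Among the members, fed differences ran from -0.22 ± 0.11 for Ephx1 to 0.39 ± 0.26 for Hmox1, and the lowest unadjusted p was 0.0573, for Ephx1.

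**Figure D2:**
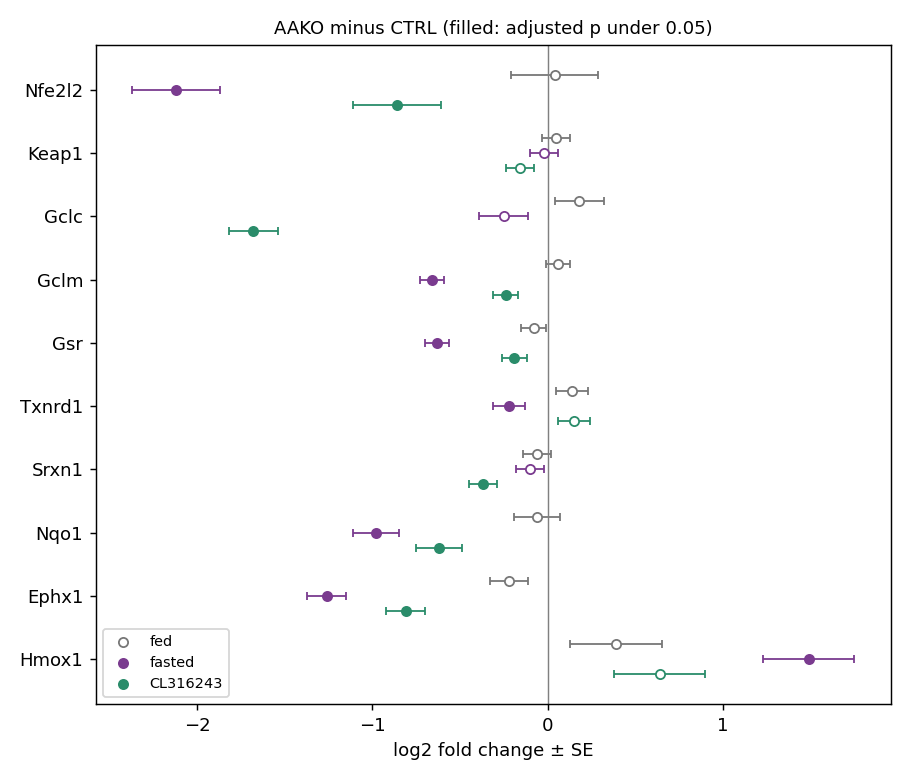
Difference between genotypes (AAKO minus CTRL, log2 fold change ± SE) of the 10 members in fed, fasted and CL316243 mice; filled points passed an adjusted p under 0.05. All fed points are open, Gclc moved furthest with CL316243 (-1.68), Nfe2l2 (NM_010902 probe) furthest with fasting (-2.12), and Hmox1 is the member on the right in fasted mice (1.49).

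Fasting against feeding moved 4 members in CTRL and 9 in AAKO. In CTRL, Srxn1 and Nqo1 rose and Gclc and Gclm fell, with 43.3% of all genes called (20.9% higher and 22.4% lower) and a member median of 0.01 against -0.02 over all genes. In AAKO, Srxn1 and Hmox1 rose and 7 members fell, with 63.5% of all genes called (27.8% higher and 35.7% lower) and a median of -0.45 against -0.09. With the other Nfe2l2 probe, 3 members rose and 2 fell in CTRL, and 3 rose and 6 fell in AAKO. CL316243 against feeding moved 3 members in CTRL (Srxn1, Txnrd1 and Keap1, all higher; 23.3% of all genes called, 10.4% higher and 12.8% lower; median 0.14 against -0.03). In AAKO it moved 6 members, of which Srxn1 and Txnrd1 were higher and Gclc, Nfe2l2, Nqo1 and Ephx1 lower (31.4% of all genes called, 15.7% in each direction; median -0.06 against -0.01). With the other Nfe2l2 probe, CL316243 moved 4 members in CTRL, all higher, and in AAKO 2 were higher and 3 lower. These 4 comparisons rest on fed groups of another experiment, and those within a genotype share the same fed arrays.

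**Figure D3:**
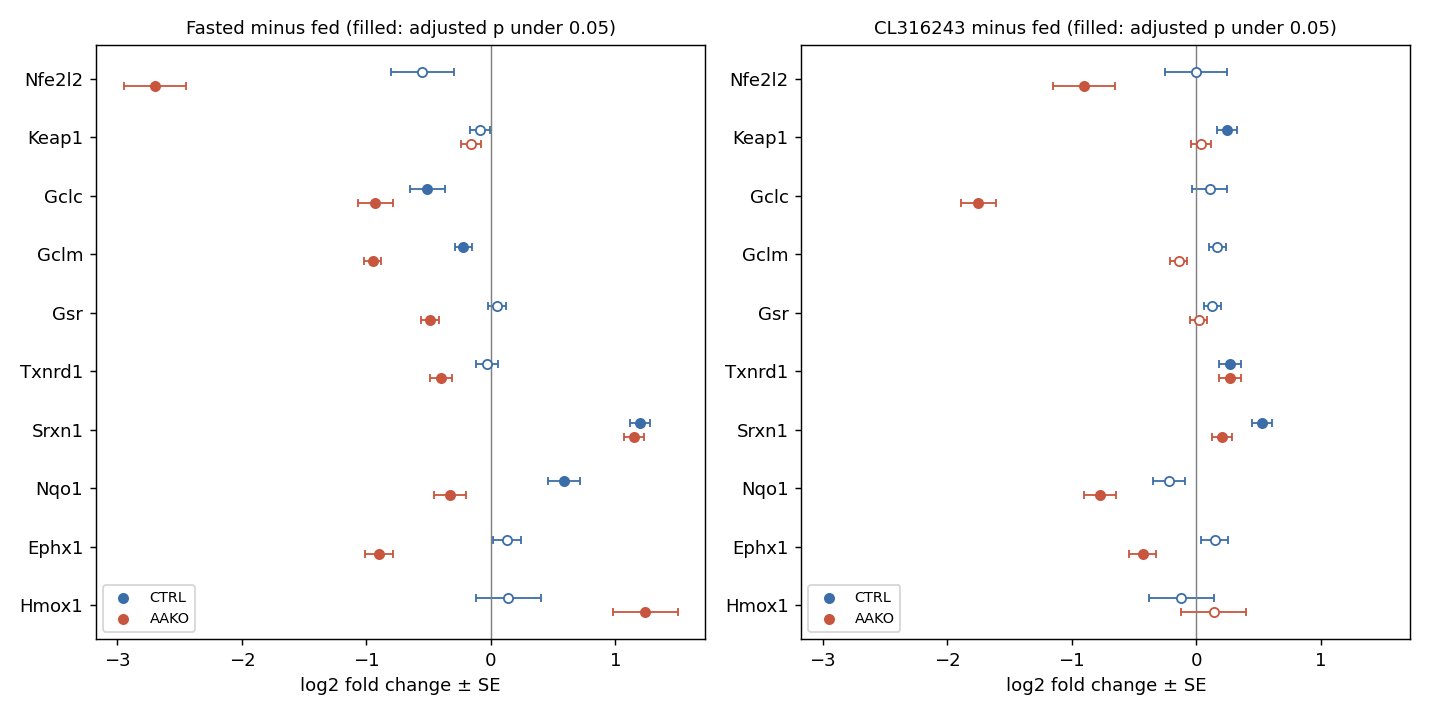
Response of the 10 members to fasting (left) and CL316243 (right) against fed mice, in CTRL (blue) and AAKO (red), as log2 fold change ± SE; filled points passed an adjusted p under 0.05. Srxn1 rose in both genotypes (1.2 and 1.15) with fasting, whereas Gclc fell by 1.75 with CL316243 in AAKO and was at 0.11 in CTRL.

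Within experiment 1, fasted mice were set against mice given CL316243. In CTRL, 6 members were called (36.8% of all genes, 19.2% higher and 17.6% lower), with Srxn1 (0.67 ± 0.08) and Nqo1 (0.80 ± 0.13) higher in fasted mice and Gclc (-0.62), Gclm (-0.39), Keap1 (-0.34) and Txnrd1 (-0.30) lower. In AAKO all 10 were called (59.9% of all genes, 26.2% higher and 33.8% lower), with Srxn1 (0.94 ± 0.08), Hmox1 (1.1 ± 0.26), Gclc (0.81 ± 0.14) and Nqo1 (0.45 ± 0.13) higher in fasted mice. The 6 lower were Nfe2l2 (-1.80), Gclm (-0.81), Txnrd1 (-0.67), Gsr (-0.51), Ephx1 (-0.47) and Keap1 (-0.20). By the other Nfe2l2 probe the counts were 3 higher and 4 lower in CTRL, and 5 higher and 5 lower in AAKO. Gclc was thus lower in fasted CTRL mice and higher in fasted AAKO mice than in their CL316243 counterparts, and the difference between these effects was itself called (1.43 ± 0.20, limma adjusted p = 1.76e-06).

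The change in the genotype difference from one condition to another was tested as an interaction. From fed to fasted, 7 members changed (33.9% of all genes called, 14.5% upward and 19.4% downward): Nfe2l2 (-2.16), Ephx1 (-1.04), Nqo1 (-0.91), Gclm (-0.72), Gsr (-0.55) and Txnrd1 (-0.37) downward in AAKO, and Hmox1 (1.1) upward. From fed to CL316243, 4 members changed, all downward in AAKO (10.9% of all genes called, 6.34% upward and 4.52% downward): Gclc (-1.86), Ephx1 (-0.58), Nqo1 (-0.56) and Gclm (-0.31). From CL316243 to fasted, 6 members changed (32.3% of all genes called, 12.7% upward and 19.6% downward), with Gclc upward and Nfe2l2 (-1.25), Ephx1 (-0.45), Gsr (-0.44), Gclm (-0.42) and Txnrd1 (-0.37) downward. By the other Nfe2l2 probe the counts were 2 upward and 5 downward from fed to fasted, 5 downward from fed to CL316243, and 2 upward and 4 downward from CL316243 to fasted. An effect of the experiment that is equal in both genotypes cancels in the first 2 of these tests. The fed to CL316243 calls of Nqo1 and Gclm were near the threshold (adjusted p = 0.0414 and 0.0383), and that of Nqo1 was lost in a fit with a replicate block (adjusted p = 0.0585).

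Nfe2l2, by its NM_010902 probe, was lowest in AAKO fasted livers. The lowest, median and highest array were at 2.32, 2.72 and 2.94 in CTRL fed, 2.37, 2.60 and 3.37 in AAKO fed, 0.74, 2.20 and 2.83 in CTRL fasted, and -0.89, 0.00 and 0.82 in AAKO fasted. The CL316243 arrays were at 2.31, 2.75 and 2.88 in CTRL mice and 1.43, 1.83 and 2.31 in AAKO mice. Only CTRL fasted replicate 2, at 0.74, reached into the AAKO fasted range. The fasted genotype difference was -2.12 ± 0.25 (4.34-fold lower in AAKO, adjusted p = 2.07e-08), and it was -2.39 without that array. With CL316243 the difference was -0.86 ± 0.25 (adjusted p = 0.0101), and within wash batch 2 alone it was -0.61 and not called (adjusted p = 0.471). Against fed mice, AAKO fell by 2.70 with fasting and by 0.90 with CL316243, whereas CTRL was at -0.55 with fasting (adjusted p = 0.0757) and 0.00 with CL316243. The CTRL fasting value became a call without CTRL fasted replicate 3 (-0.68), CTRL fasted replicate 4 (-0.69) or CTRL fed replicate 2 (-0.64). CTRL fasted replicate 2 pulled this value down. The other CTRL fasted arrays lay between 2.05 and 2.83, beside 2.32 to 2.94 in CTRL fed.

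The ENSMUST00000152371 probe of Nfe2l2 rose with fasting instead. Its lowest, median and highest array were at -0.96, -0.54 and -0.18 in CTRL fed and -1.22, -0.56 and -0.35 in AAKO fed. Fasted CTRL arrays were at 2.45, 2.71 and 3.44 and fasted AAKO arrays at 3.66, 3.84 and 4.03, so the fasted genotypes did not overlap and AAKO was higher. With CL316243 the CTRL arrays were at 0.33, 0.39 and 1.03 and the AAKO arrays at -1.18, -0.81 and 0.08, again with no overlap but with AAKO lower. In a limma fit over the 36550 probes that passed the filter, chosen after these values were seen, fasting raised it by 3.33 ± 0.20 in CTRL (adjusted p = 2.33e-14) and by 4.46 ± 0.20 in AAKO (22.1-fold, adjusted p = 7e-18). The genotype difference was 1.05 ± 0.20 in fasted mice (adjusted p = 4.91e-05) and -1.16 ± 0.20 with CL316243 (adjusted p = 5.41e-05). The 2 probes thus had opposite signs between genotypes in fasted mice and the same sign with CL316243. Their values over the 36 arrays had a Pearson r of -0.687, and their deviations from the group means had an r of -0.068. No single direction can be given for Nfe2l2 RNA under fasting from these arrays.

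**Figure D4:**
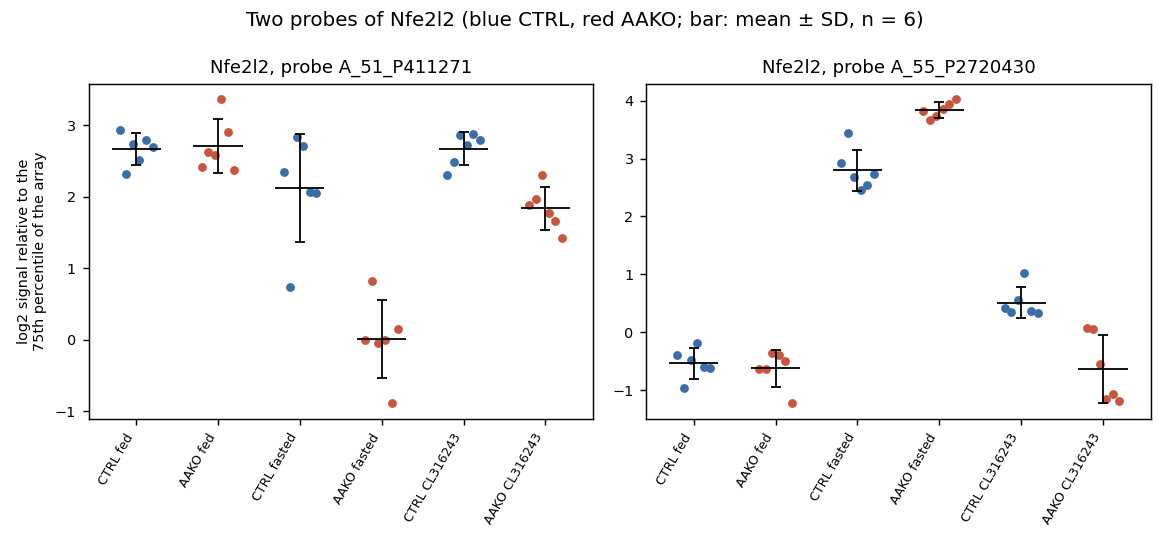
The 2 probes of Nfe2l2 (left NM_010902, right ENSMUST00000152371) by group, as log2 signal over the array's 75th percentile, with arrays as points and mean ± SD as bars (n = 6). In AAKO fasted livers the left probe is at its lowest (mean 0.01) and the right probe at its highest (mean 3.84).

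Keap1, the repressor of NRF2, moved least of the members. Its group means ran from 2.64 ± 0.30 in AAKO fasted to 3.00 ± 0.13 in CTRL CL316243, and neighbouring groups in this order overlapped. No genotype difference was called, with values of 0.05 ± 0.08 in fed, -0.02 ± 0.08 in fasted and -0.16 ± 0.08 in CL316243 mice. CL316243 raised Keap1 over feeding in CTRL (0.25 ± 0.08, adjusted p = 0.0183), a call that was lost without CTRL fed replicate 4 or CTRL CL316243 replicate 1 (0.21 in each case). The AAKO difference between fasted and CL316243 mice (-0.20) lost its call after quantile normalization (-0.14), in the authors' deposited value table (-0.08), and without AAKO CL316243 replicates 1 or 3 or AAKO fasted replicates 1, 5 or 6 (-0.19 to -0.16).

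The glutathione genes separated by condition. Gclc and Gclm encode the catalytic and the modifier subunit of glutamate-cysteine ligase, the first and limiting enzyme of glutathione synthesis, and Gsr encodes glutathione reductase, which returns oxidised glutathione to its reduced form. Gclc was lowest with CL316243 in AAKO: the lowest, median and highest array were at 2.11, 2.28 and 2.42 there and at 3.74, 3.97 and 4.09 in CTRL CL316243. These groups did not overlap (SD 0.11 in AAKO and 0.14 in CTRL), and the difference was -1.68 ± 0.14 (3.20-fold lower, adjusted p = 5.04e-10). It was called in both wash batches and without any 1 array. In the other groups the values were 3.07, 3.91 and 4.10 in CTRL fed, 3.75, 3.91 and 4.54 in AAKO fed, 2.62, 3.35 and 3.82 in CTRL fasted, and 2.85, 3.06 and 3.23 in AAKO fasted. Fasting lowered Gclc in CTRL (-0.51 ± 0.14, adjusted p = 0.00355) and AAKO (-0.93 ± 0.14, adjusted p = 6.38e-07). In fasted mice the genotypes overlapped (-0.25 ± 0.14, adjusted p = 0.149), and without CTRL fasted replicate 2 the difference was -0.36 and was called (adjusted p = 0.0218).

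Gclm and Gsr instead were lowest in AAKO fasted livers. Gclm arrays there were at 3.59, 3.79 and 3.97 (lowest, median and highest) against 4.25, 4.44 and 4.69 in CTRL fasted, a difference of -0.66 ± 0.07 (1.58-fold lower, adjusted p = 2.29e-09). Fed arrays were between 4.50 and 4.89 in CTRL and between 4.61 and 4.85 in AAKO. With CL316243 the 2 genotypes just failed to overlap, between 4.50 and 4.64 in AAKO and between 4.65 and 4.93 in CTRL (-0.24 ± 0.07, adjusted p = 0.00895), and neither wash batch alone gave a call (-0.21 and -0.24). Both subunit genes of the ligase thus had their larger genotype difference in different conditions, and both changes were called: the difference moved by 1.43 ± 0.20 for Gclc and by -0.42 ± 0.10 for Gclm from CL316243 to fasted mice (adjusted p = 1.76e-06 and 0.00132). Gsr arrays were at 3.30, 3.53 and 3.64 in AAKO fasted and 3.79, 4.16 and 4.36 in CTRL fasted (-0.63 ± 0.07, adjusted p = 4.65e-09). In the remaining groups all Gsr arrays lay between 3.85 and 4.27. The small CL316243 difference of Gsr (-0.19 ± 0.07, adjusted p = 0.0416) was lost in a fit with a replicate block (adjusted p = 0.0549) and without AAKO CL316243 replicates 1, 2, 5 or 6 or CTRL CL316243 replicates 3, 4 or 6 (-0.19 to -0.17).

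In the thioredoxin system, Srxn1 was highest in fasted mice of both genotypes. Srxn1 encodes sulfiredoxin, which repairs over-oxidised peroxiredoxins, and Txnrd1 encodes the cytosolic thioredoxin reductase. Fasted Srxn1 arrays were at 4.05, 4.22 and 4.39 in CTRL and 3.88, 4.14 and 4.30 in AAKO, and every one of them lay above all arrays of the 4 other groups. Fed arrays were at 2.83, 3.01 and 3.19 in CTRL and 2.72, 2.96 and 3.11 in AAKO. Fasting raised Srxn1 by 1.2 ± 0.08 in CTRL (2.30-fold, adjusted p = 2.29e-13) and by 1.15 ± 0.08 in AAKO (2.22-fold, adjusted p = 6.97e-14), and the difference between these responses was -0.05 ± 0.11 (adjusted p = 0.791). With CL316243 CTRL arrays were at 3.35, 3.55 and 3.72 and AAKO arrays at 3.03, 3.21 and 3.33, with no overlap (-0.37 ± 0.08, adjusted p = 0.000683). Against fed mice CL316243 raised Srxn1 by 0.53 ± 0.08 in CTRL (adjusted p = 1.14e-05) and by 0.21 ± 0.08 in AAKO (adjusted p = 0.0394). The AAKO call was lost in the authors' deposited value table (0.14), with a replicate block (adjusted p = 0.0566), and without AAKO fed replicates 1 or 3 or AAKO CL316243 replicates 1, 2, 3 or 5 (0.15 to 0.22).

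Txnrd1 had small differences. Its group means were 4.01 ± 0.06 and 4.16 ± 0.11 in CTRL and AAKO fed mice, 3.98 ± 0.06 and 3.76 ± 0.19 in fasted mice, and 4.28 ± 0.07 and 4.43 ± 0.24 with CL316243. CL316243 raised it over feeding by 0.27 ± 0.09 in both CTRL (adjusted p = 0.0215) and AAKO (adjusted p = 0.0150), the latter not without AAKO CL316243 replicate 4 (0.21). Fasting lowered it in AAKO (-0.40 ± 0.09, adjusted p = 0.000127), and the CTRL value was -0.03 ± 0.09. The fasted genotype difference of -0.22 ± 0.09 (adjusted p = 0.0286) was not called without CTRL fasted replicates 1 or 3 or AAKO fasted replicates 2, 4 or 5 (-0.22 to -0.18). Both Txnrd1 probes are annotated with NM_001042523. The dimmer probe gave -0.29 ± 0.14 in fasted mice (adjusted p = 0.0819), -0.68 ± 0.14 for fasting in AAKO (adjusted p = 6.78e-05) and 0.48 ± 0.14 for CL316243 in CTRL (adjusted p = 0.0116). It gave no limma call for CL316243 in AAKO (0.10 ± 0.14, adjusted p = 0.643), so that rise rests on the brighter probe. The change of its genotype difference from CL316243 to fasted mice was not called either (-0.23 ± 0.20, limma adjusted p = 0.414).

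The detoxifying enzymes were lower in AAKO under both stimuli. Nqo1 encodes a quinone reductase, a classical NRF2 target, and Ephx1 encodes the microsomal epoxide hydrolase. Nqo1 arrays were at -1.67, -1.02 and -0.89 in CTRL fasted and -2.24, -2.09 and -2.03 in AAKO fasted (lowest, median and highest), with no overlap (-0.98 ± 0.13, 1.97-fold lower, adjusted p = 1.45e-07). With CL316243 they were at -2.29, -1.97 and -1.53 in CTRL and -2.69, -2.64 and -2.03 in AAKO, where replicate 2 alone reached the CTRL range (-0.62 ± 0.13, adjusted p = 0.000442). Neither wash batch alone gave a call (-0.57 and -0.69). Fed arrays lay between -2.04 and -1.34 in both genotypes. Fasting moved Nqo1 in opposite directions: it rose by 0.59 ± 0.13 in CTRL (adjusted p = 0.000333) and fell by 0.33 in AAKO (SE 0.13, adjusted p = 0.0259), and the difference of these responses was -0.91 ± 0.18 (adjusted p = 0.000182). The fall in AAKO was not called in the authors' deposited value table (-0.20) or without replicate 2 of AAKO fasted (-0.29) or AAKO fed (-0.28).

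Ephx1 arrays were at 5.68, 6.01 and 6.30 in AAKO fasted and 6.94, 7.35 and 7.48 in CTRL fasted, a difference of -1.26 ± 0.11 (2.39-fold lower, adjusted p = 1.09e-10). With CL316243 they were at 6.23, 6.56 and 6.63 in AAKO and 7.21, 7.28 and 7.39 in CTRL (-0.81 ± 0.11, 1.75-fold lower, adjusted p = 2.7e-06). Neither pair of groups overlapped. Fed arrays lay between 6.63 and 7.30. Ephx1 fell in AAKO by 0.90 with fasting (adjusted p = 2.31e-08) and by 0.43 with CL316243 (adjusted p = 0.0034), and was at 0.13 ± 0.11 and 0.15 ± 0.11 in CTRL. The change of the genotype difference from CL316243 to fasted mice (-0.45 ± 0.16, adjusted p = 0.0281) was lost after quantile normalization (-0.32), in the authors' deposited value table (-0.31), and without CTRL fasted replicates 1, 4 or 5, AAKO fasted replicate 2 or AAKO CL316243 replicate 4 (-0.43 to -0.38).

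Hmox1 was the only member called higher in AAKO than in CTRL in fasted mice by the probes used for the genes; 6 were called lower and Keap1, Gclc and Srxn1 were not called. It encodes heme oxygenase 1, which breaks down heme and is induced by NRF2 and by several other stress signals, in macrophages as well as in hepatocytes. By its NM_010442 probe the lowest, median and highest array were at 1.49, 1.90 and 2.09 in CTRL fed, 1.81, 2.23 and 2.75 in AAKO fed, 1.37, 1.82 and 2.84 in CTRL fasted, and 2.40, 3.52 and 4.36 in AAKO fasted. The CL316243 arrays were at 0.81, 1.97 and 2.11 in CTRL mice and 1.78, 2.30 and 3.06 in AAKO mice. In fasted mice 5 of 6 AAKO arrays lay above all CTRL arrays (1.49 ± 0.26, 2.80-fold higher, adjusted p = 1.81e-05). Hmox1 rose with fasting in AAKO (1.24 ± 0.26, adjusted p = 0.000119), and the CTRL value was 0.14 ± 0.26. The CL316243 genotype difference of 0.64 ± 0.26 was not called (adjusted p = 0.0731), and became a call without AAKO CL316243 replicate 3 (0.74). The Hmox1 probe annotated with ENSMUST00000160341 was well above background on at most 3 arrays of a group and gives no check.

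Markers of blood cells and macrophages were compared over the same groups. Between genotypes in fasted mice, 21.3% of all genes were called higher in AAKO and 28% lower. For fasting in AAKO these shares were 27.8% and 35.7%, and between genotypes with CL316243 they were 13.4% and 11.3%. Of 6 neutrophil markers, 3 were called higher in AAKO fasted than in CTRL fasted livers: S100a8 (3.60), S100a9 (3.38) and Retnlg (3.85), beside 0 lower. Their summed signal, in multiples of the 75th percentile, ran from 7.66 to 85.3 in AAKO fasted and from 2.25 to 55.4 in CTRL fasted. It ran from 2.40 to 5.46 in CTRL fed, 2.31 to 32.4 in AAKO fed, 1.99 to 4.99 in CTRL CL316243 and 3.29 to 8.75 in AAKO CL316243. With fasting in AAKO, where Hmox1 rose, 3 of the 6 were called higher and 1 lower. Of 10 Kupffer cell and macrophage markers, 2 were called higher in AAKO fasted, C1qa (1.01) and C1qb (1.11), and the summed signal ran from 17.9 to 85.6 there and from 28.3 to 90.8 in CTRL fasted. Its mean was highest in fed mice, where it ran from 41 to 94.6 in CTRL and 66 to 116 in AAKO, and ran from 18.3 to 57.9 in CTRL and 38 to 59.4 in AAKO with CL316243. With fasting in AAKO, 0 of the 10 macrophage markers were called higher by limma and 5 lower, with a median of -0.74. All of these 16 markers passed the filter, and each was well above background on at least 1 array of every group. Their part in the Hmox1 result was not tested. With CL316243, 0 markers of either list were called between genotypes by limma, and 0 had an unadjusted p under 0.05. Other lists also held calls: the sinusoidal endothelial marker Lyve1 was higher in AAKO in fasted (1.82) and CL316243 mice (1.00), as were Stab2 in fasted (0.31) and Clec4g in CL316243 mice (0.57). The cholangiocyte markers Sox9 (-0.90) and Krt19 (-0.76) were lower in AAKO fasted livers, and Sox9 (-0.73) with CL316243. In fasted mice 2 of 6 stellate cell markers were called higher in AAKO and 0 lower. Their summed signal ran from 82.6 to 111 in AAKO fasted and from 66.3 to 82.6 in CTRL fasted. Also in fasted mice, 1 of 4 lymphocyte and 1 of 2 erythroid markers tested were lower, and of 4 adipocyte markers 1 was higher and 1 lower. With CL316243, 0 stellate, lymphocyte, erythroid or adipocyte markers were called between genotypes. The part of these cell types in the members' differences was not tested.

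Among NRF2's partners and regulators, genes moved both ways. In fasted mice, 5 of 12 were higher and 4 lower in AAKO, with a median of 0.10, beside 21.3% of all genes higher and 28% lower. The same shares stand beside the fasted counts of each list that follows, 13.4% and 11.3% beside the CL316243 counts, and 20.9% and 22.4% beside those for fasting in CTRL. Maff and Mafk, small MAF proteins that pair with NRF2 on DNA or oppose it, were higher by 2.36 ± 0.28 (5.15-fold, adjusted p = 2.21e-08) and 1.03 ± 0.11 (adjusted p = 4.96e-09), and so was Cul3, the scaffold of the ubiquitin ligase that KEAP1 serves (0.52 ± 0.06). Btrc, a subunit of another ligase that acts on NRF2 (-0.94), Park7 (-0.46) and the NRF2 relative Nfe2l1 (-0.30) were lower. With CL316243, 2 of 12 were higher (Rbx1, 0.31, and Dpp3, 0.19) and 3 lower, with a median of 0.00: Maff (-0.88), Nfe2l1 (-0.59) and Mafg (-0.32). Maff therefore was higher in AAKO fasted and lower in AAKO CL316243 than in their controls. In CTRL, fasting raised 4 of 12, among them Sqstm1 (0.72), whose p62 protein binds KEAP1, Mafk (0.54) and Btrc (0.54). It lowered 6 of 12, among them Maff (-0.89), Mafg (-0.58) and Bach1 (-0.50), a repressor at antioxidant response elements.

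Genes that use glutathione were mostly lower in AAKO fasted livers: 14 of 19 tested were lower (28% of all genes) and 2 higher (21.3%), with a median of -0.54, and Slc7a11 and Ggt1 did not pass the filter. The exporter Abcc3 (-1.99 ± 0.21, 3.97-fold lower), glutaredoxin Glrx (-0.94) and the glutathione transferase Gstm4 (-0.69) were lowest. The exporter Abcc4 (1.53 ± 0.23) and glutathione synthetase Gss (0.32) were higher. In fed mice Abcc3 was already at 4.68 ± 0.29 in CTRL and 3.77 ± 0.57 in AAKO, though none of the 19 was called. With CL316243, 4 of 19 were lower, among them Abcc3 (-1.39), Glrx (-0.55) and Gss (-0.28), and 0 were higher, with a median of -0.18. Fasting in CTRL lowered 11 of 19, with the glutathione transferases Gsta3 (-1.29), Gsta4 (-1.11) and Gstm6 (-0.90) lowest, and raised Glrx (1.13), Abcc4 (0.96) and Abcc3 (0.65). Glutathione transferase genes have near-identical relatives, so their probes may read more than 1 gene.

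Of the thioredoxin, peroxiredoxin, catalase and superoxide dismutase genes, 11 of 13 were lower in AAKO fasted livers and 1 was higher, with a median of -0.38. Catalase (Cat) fell most (-1.42 ± 0.09, 2.67-fold lower, adjusted p = 2.95e-14), followed by Prdx1 (-0.70), a peroxiredoxin that removes peroxides, and thioredoxin Txn1 (-0.60). Txnip, an inhibitor of thioredoxin, was higher by 1.94 ± 0.25 in fasted AAKO mice and lower by 1.37 ± 0.25 in AAKO mice given CL316243 (log2 fold change -1.37). With CL316243, 3 of 13 were lower (Prdx6, -0.44, and Cat, -0.25, beside Txnip) and 1 higher (Txn2, 0.24), with a median of -0.06. Fasting in CTRL lowered 10 of 13, with Txn1 (-0.70), Sod2 (-0.66) and Prdx6 (-0.59) lowest, and raised Txnip (1.92).

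Enzymes that supply NADPH, the reductant these systems consume, were lower in AAKO than in CTRL or not called under both stimuli. In AAKO fasted livers 3 of 6 were lower, with a median of -0.41: Idh1 (-1.95 ± 0.10, 3.86-fold lower), malic enzyme Me1 (-0.99) and transaldolase Taldo1 (-0.63). With CL316243, 4 of 6 were lower, among them Me1 (-1.21), Pgd (-0.60) and Idh1 (-0.42), with a median of -0.37. Fasting in CTRL lowered 5 of 6, with G6pdx (-0.91), Tkt (-0.89) and Idh1 (-0.75) lowest. CL316243 in CTRL instead raised 2 of 6 over feeding, Me1 (0.99) and Pgd (0.42), beside 10.4% of all genes called higher and 12.8% lower. Both genes fall outside the rule for named genes and were chosen after their values were seen.

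Other detoxification genes known as NRF2 targets split in AAKO fasted livers, with 4 of 12 higher, 6 lower and a median of -0.16. Aldehyde oxidase Aox1 (-1.99 ± 0.14), Entpd5 (-1.60 ± 0.09) and the carboxylesterase Ces1g (-1.31) were lowest, and Adh7 (1.89), Osgin1 (0.97) and Cyp2a5 (0.95) highest. With CL316243, 5 of 12 were lower and 0 higher, with a median of -0.22, among them Entpd5 (-1.0), Ces1g (-0.94) and Cyp2a5 (-0.81). Fasting in CTRL raised 4, among them Adh7 (0.96), Htatip2 (0.95) and Cbr1 (0.80), and lowered 6, among them Ptgr1 (-1.79), Cyp2a5 (-1.25) and Osgin1 (-0.95).

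Around heme oxygenase, few of the other heme and iron genes were called higher in AAKO, the direction of Hmox1 in fasted mice. In AAKO fasted livers 1 of 8 was higher, Hmox2 (0.41), the constitutive heme oxygenase, and 2 were lower, the iron exporter Slc40a1 (-1.17) and biliverdin reductase B, Blvrb (-1.10). The same 3 genes were called in the same directions with CL316243 (0.44, -0.98 and -0.51). The medians were -0.04 and -0.05. In CTRL, fasting raised Hmox2 (0.47) and lowered ferrochelatase Fech (-0.79) and Blvra (-0.67).

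**Figure D5:**
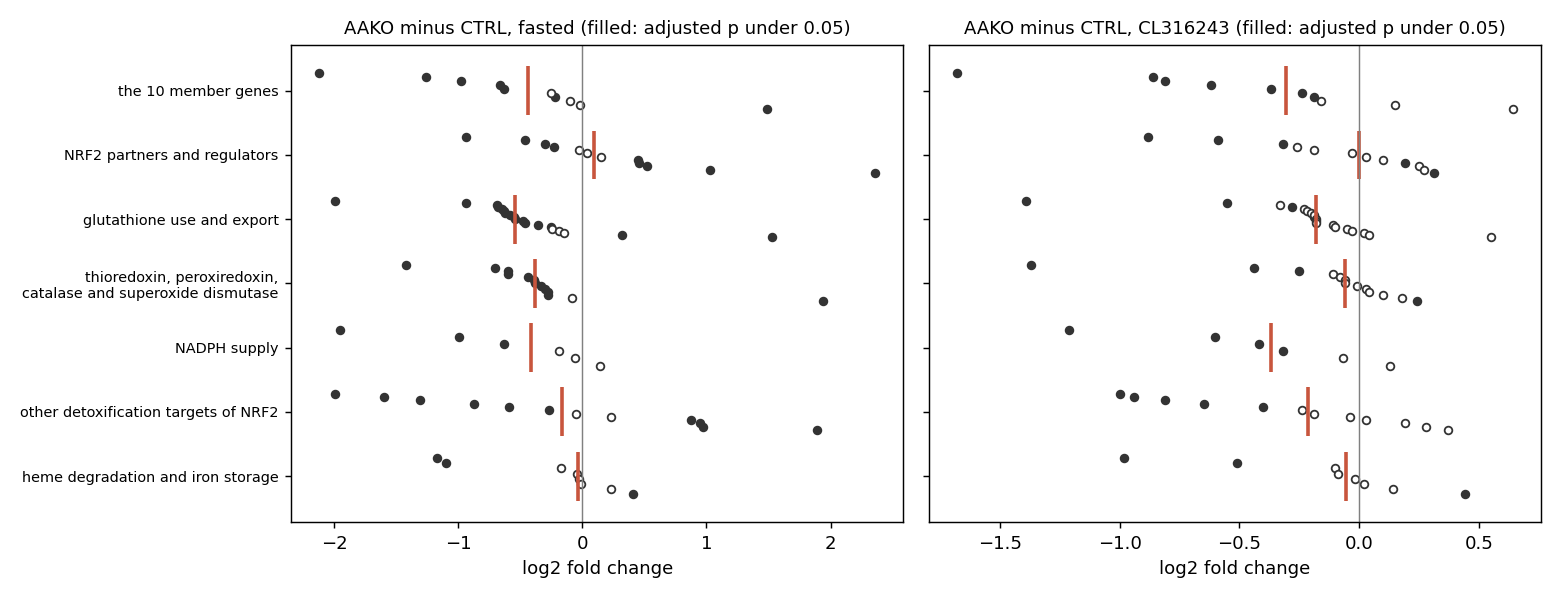
Genotype difference (AAKO minus CTRL, log2 fold change) of each tested gene of the members and 6 related lists, in fasted (left) and CL316243 mice (right); filled points passed an adjusted p under 0.05 and red bars are list medians. In fasted mice the median is -0.54 for glutathione use and export and 0.10 for partners and regulators; with CL316243 these medians are -0.18 and 0.00.

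The genes with the most similar profiles to 4 members over the 36 arrays were taken by Pearson r, as a description, since the arrays share 6 groups. For Nqo1 they were Gm16283 (r = 0.890), Nr1i3 (r = 0.873), which encodes the nuclear receptor CAR, and Tmem198b (r = 0.871). For Hmox1 they were Ier3 (r = 0.895), Scrg1 (r = 0.874) and Tiparp (r = 0.867), for Gclc they were Hlf (r = 0.858), Tsc22d1 (r = 0.857) and Lrp4 (r = 0.845), and for Txnrd1 they were D11Wsu47e (r = 0.885), Lpgat1 (r = 0.878) and Nfyb (r = 0.872). Deviations from the group means gave other leading genes: Kiz (r = 0.720), Atraid and Tmem126b for Nqo1, Cyp4f18 (r = 0.755), Ier3 (r = 0.752) and Gm11482 for Hmox1, Ces1f (r = 0.788), Sec14l2 and Nipsnap1 for Gclc, and Gtf2e2 (r = 0.764), Aars and Ssx2ip for Txnrd1. Of the 12 genes leading over arrays, Ier3 with Hmox1 also led by deviations.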

How the data were processed

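The authors deposited spot intensity per array; the submitters' processing notes name Agilent Feature Extraction 10.10.1.1 and limma. The processed signal intensity is background-subtracted, per the file headers. A table of log2 values deposited by the authors (36898 probes, normalization not given in the sources used here) served as an alternative. Each of its 36 columns matched its own array best (lowest r 0.999), which shows a log2 scale in the scanner's direction. Its median ran from 6.88 to 7.01 by group, and its centring is unknown. The number of arrays limits the precision.

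The processed signal was divided by its 75th percentile over non-control probes of the array and put on the log2 scale. Outlier spots (2701, 0.127%) were left out, none was saturated, and spots of a probe were averaged. Names of 32994 probes came through RefSeq accessions. Files were read in R 4.3.3 (data.table package, release 1.17.8), and limma 3.58.1 fitted 6 group means and wash batch over all arrays (eBayes, two-sided, Benjamini-Hochberg), after a test on simulated data.

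The members and lists were chosen with earlier results of these data known. Named genes are the members and, per list, up to 3 called genes at each end in the fasted and CL316243 genotype contrasts and CTRL fasting. Summed marker levels add linear values. Alternatives were normexp (offset 50), quantile normalization, the authors' table, no filter, probe means, no wash batch term, slide as fixed or random factor, replicate block, each wash batch, only the groups compared, and leaving out each array.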

Additional observations from a re-analysis of the deposited data

Results flagged for a closer look

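Among 78 sets of 6 arrays (13 probes in 6 groups), 10 held an array set apart from the other 5, by a gap to its nearest neighbour above 0.625 of the group's range; chance gives such a gap in about 1 of 20 sets. These were Ephx1 in CTRL fed replicate 6 (6.75), Gclc in CTRL fed replicate 6 (3.07) and AAKO fed replicate 4 (4.54), Gclm in AAKO CL316243 replicate 6 (4.50), Nqo1 in AAKO CL316243 replicate 2 (-2.03) and Nfe2l2 (NM_010902 probe) in CTRL fasted replicate 2 (0.74). The ENSMUST00000152371 probe of Nfe2l2 had AAKO fed replicate 6 (-1.22) and CTRL CL316243 replicate 4 (1.03). The dim Hmox1 probe had AAKO fasted replicate 1 (-4.19) and AAKO fed replicate 2 (-7.46).

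The genotype difference changed between conditions by a called interaction for 21 combinations of probe and contrast. From fed to fasted mice it changed by -2.16 for Nfe2l2, -0.91 for Nqo1, -0.72 for Gclm, -0.37 for Txnrd1, 1.1 for Hmox1, -0.55 for Gsr and -1.04 for Ephx1. From fed to CL316243 it changed by -0.56 for Nqo1, -1.86 for Gclc, -0.31 for Gclm and -0.58 for Ephx1. From CL316243 to fasted mice it changed by -1.25 for Nfe2l2, 1.43 for Gclc, -0.42 for Gclm, -0.37 for Txnrd1, -0.44 for Gsr and -0.45 for Ephx1. By the probes not used for the gene it changed by 1.13, -1.07 and 2.20 for Nfe2l2 in these 3 comparisons and by -0.60 for Txnrd1 from fed to fasted.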

How the results depend on the processing

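The direction of every member called in the reported fit held in every alternative run except for Nfe2l2, where the choice of probe turned it. With the ENSMUST00000152371 probe (chosen after seeing the data), the Nfe2l2 difference was 1.05 between genotypes in fasted mice, 3.33 and 4.46 for fasting in CTRL and AAKO, 2.29 and 4.49 for fasted against CL316243, and 1.13 and 2.20 for the genotype difference in fasted against fed and CL316243 mice. With the mean of both Nfe2l2 probes it was 1.39 and 0.88 for fasting in CTRL and AAKO, 0.87 and 1.34 for fasted against CL316243, and 0.47 for that genotype difference against CL316243. The CTRL values for fasting and for fasted against CL316243 (both -0.55) were not called in the reported fit and were called under these alternatives. Sign changes called under neither are not counted here.

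Counts of called members moved by over 1.5 times mostly within a wash batch, where groups hold fewer arrays: the CL316243 genotype comparison gave 4 in batch 1 and 2 in batch 2 (7 in all arrays), CL316243 against fed gave 1 and 1 in CTRL (3) and 2 in batch 2 in AAKO (6), fasting in CTRL gave 1 in batch 1 (4), fasted against CL316243 in CTRL gave 2 in batch 1 (6), and the genotype difference from CL316243 to fasted gave 2 in batch 2 (6). Over all 24251 genes, the CL316243 genotype comparison called 3014 in batch 1 and 1562 in batch 2 (6002 in all arrays). CL316243 against fed called 2127 and 1602 in CTRL (5644), and 2280 in batch 2 in AAKO (7606). In batch 1, fasting in CTRL called 5920 (10503) and fasted against CL316243 in CTRL 4544 (8929). The genotype difference from CL316243 to fasted called 3087 in batch 2 (7843). The genotype difference from fed to CL316243 gave 4 members in the reported fit, 1 in each wash batch, 2 with no filter and 2 with no wash batch term. Leaving out 1 array gave 2 to 4 there, with 2 without any of CTRL fed replicates 4, 5 or 6, AAKO fed replicate 4, CTRL CL316243 replicates 3, 5 or 6 or AAKO CL316243 replicates 5 or 6; the calls lost were those of Gclm and Nqo1. Over all genes, the genotype difference from fed to CL316243 was called for 2635 in the reported fit and for 460 and 476 in wash batches 1 and 2. It was called for 2100 of 37325 genes with no filter and for 2535 with no wash batch term. The cause of these changes in the counts of members was not tested, and fits within a wash batch differ from the reported one in both batch and number of arrays.

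With the replicate block the counts were 7 for genotype in fasted mice, 6 with CL316243 and 0 in fed mice; it ended the calls of Gsr with CL316243, Srxn1 for CL316243 in AAKO and Nqo1 from fed to CL316243 and no other member call. The replicate numbers are not known to pair animals: deviations from group means had a mean r of -0.00106 for the same number and 0.000195 for other numbers, and 6 of 36 arrays correlated best with their own number. Slide as a random block had a correlation of -0.00981. The authors' deposited table moved the all-gene median of fasted minus CL316243 in AAKO from -0.08 to 0.05, with 58.3% of calls higher against 43.6%; normexp gave 31.4%.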

Other observations

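The genes with profiles most like the ENSMUST00000152371 probe of Nfe2l2, chosen for this after its values were seen, were Ankrd50 (r = 0.983), 2410022M11Rik (r = 0.981) and 1810044D09Rik (r = 0.981) over the 36 arrays. By deviations from the group means they were Ankrd50 (r = 0.873), 2410022M11Rik (r = 0.823) and Mat2b (r = 0.814).

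Over the 36 arrays, which share 6 groups, Nfe2l2 by its NM_010902 probe had an r of 0.87 with Gclm, 0.85 with Gsr, 0.78 with Ephx1, -0.52 with Srxn1 and -0.82 with Hmox1. By deviations from the group means these were 0.23, 0.52, 0.21, 0.30 and -0.55, so the sign for Srxn1 differed between the group means and the arrays within groups. Nqo1 had an r of 0.33 with Nfe2l2 over arrays and 0.31 by deviations. For Keap1, Gclc and Txnrd1 the r with Nfe2l2 was 0.36, 0.54 and 0.45 over arrays and 0.19, 0.45 and -0.06 by deviations. All these values are for the NM_010902 probe, and the r of the other members with the ENSMUST00000152371 probe is not given here.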
